A study of Mus musculus with 8 samples.

Results

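The 10 genes described here are those of endocrine progenitors and of the Notch pathway named Neurog3, Sox4, Sox9, Sox11, Hes1, Notch1, Notch2, Dll1, Jag1 and Hes6. They were chosen by symbol from the 55487 Ensembl gene identifiers in the expression tables of beta cells, and each was found. The comparison tested for a return to a progenitor state, asking whether beta cells without Chd4 take up transcripts of the precursors from which beta cells form. RNA was sequenced from beta cells sorted by flow cytometry from dispersed pancreatic islets of mice. There were 4 Chd4KO mice (Chd4Db in the design text), in which the nucleosome remodeller Chd4 was deleted in beta cells, and 4 Control mice. Mice of both genotypes had received tamoxifen. The Cre line and its promoter, the dose and timing of tamoxifen, the strain, sex and age are not given in the sources used here. Each library title carried a number of its own, read here as an animal number. These numbers were lower in every Control than in every Chd4KO mouse, and what they mark is not stated. A difference in litter or collection day cannot be told apart from genotype.

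Neurog3 is the basic helix-loop-helix transcription factor that commits cells of the embryonic pancreas to the endocrine fate, and it is switched off again as islet cells mature. Notch receptors hold neighbouring cells back from that step. When a ligand such as Dll1 or Jag1 on 1 cell engages a Notch receptor on the next, the receptor is cleaved, its intracellular part joins the DNA-binding protein RBPJ, and the repressor gene Hes1 is switched on, which in turn represses Neurog3. Sox9 maintains the progenitor pool and later the ducts, Sox4 and Sox11 are the related SoxC factors of endocrine differentiation, and Hes6 is an unusual family member that antagonises Hes1.

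The libraries held 14.9 to 20.2 M reads in genes in Chd4KO and 16.4 to 41.0 M in Control, recovered from TPM and gene length (exact permutation p = 0.0857, two-sided). TPM, a measure of transcripts per gene, divides reads by gene length and scales each library to the same total, so levels of different genes can be compared, but a few very abundant transcripts lower all others. Ins1 and Ins2 took 32.4 to 62.0% of TPM in Chd4KO and 38.1 to 41.8% in Control, with the 62.0% in Chd4KO replicate 4, which had 12702 genes at 1 TPM or more against 14788 to 15923 in the other 7 libraries. Chd4KO replicate 2 held acinar markers summing to 34791 TPM, against 1.83 to 180 TPM in the other Chd4KO libraries and 5.203 to 1342 TPM in Control. Chd4 itself was at 8.38, 6.18, 5.27 and 2.59 TPM in Chd4KO replicates 1 to 4 and at 15.98, 13.4, 11.1 and 12.3 TPM in Control replicates 1 to 4 (limma, log2 change -1.18 ± 0.29, SE, adjusted p = 0.0725). Every Chd4KO value of Chd4 lay below every Control value, at 42.4% of the Control mean (exact permutation p = 0.0286, two-sided, with no smaller value possible for this design). All 11 beta cell markers passed the filter on low values, and their summed TPM lay between 396650 and 652831 in Chd4KO and between 430680 and 470231 in Control, sums made mostly of Ins1 and Ins2. Of the 11, Mafa and Slc2a2 fell in Chd4KO (log2 changes -1.95 and -1.37, limma adjusted p = 0.0229 and 0.031), 9 did not pass, and the median change of the list was -0.64.

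Promoter sequence was available for 8 of the 10 genes, all but Hes1 and Sox9, as 10 RefSeq windows of the GRCm38.p6 build, of which the 250 bases before the annotated start were read. The windows of 3 genes are shown. Neurog3 is the gene whose return the comparison asks about, and Dll1 is the member that varied most among Chd4KO libraries. Notch2 alone among the members had groups that did not overlap, as for 9.82% of genes above 0. Notch2 did not pass the test (limma adjusted p = 0.0745, fit of every gene above 0). Capitals mark CACGCG on either strand, the class C site of HES repressors, and CAGCTG, an E-box bound by many basic helix-loop-helix factors.
Neurog3, chr10:62132840-62133089, plus strand: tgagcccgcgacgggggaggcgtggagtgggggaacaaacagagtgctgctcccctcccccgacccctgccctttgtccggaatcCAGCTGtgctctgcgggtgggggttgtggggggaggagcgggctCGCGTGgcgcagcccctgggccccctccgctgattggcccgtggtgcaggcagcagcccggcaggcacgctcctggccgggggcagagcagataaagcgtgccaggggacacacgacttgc
Notch2, chr3:98013288-98013537, plus strand: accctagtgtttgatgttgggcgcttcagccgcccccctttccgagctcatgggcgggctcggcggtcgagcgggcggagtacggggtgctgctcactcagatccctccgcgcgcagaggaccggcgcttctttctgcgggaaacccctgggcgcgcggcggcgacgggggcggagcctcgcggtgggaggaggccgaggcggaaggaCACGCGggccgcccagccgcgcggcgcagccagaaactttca
Dll1, chr17:15376933-15377182, minus strand: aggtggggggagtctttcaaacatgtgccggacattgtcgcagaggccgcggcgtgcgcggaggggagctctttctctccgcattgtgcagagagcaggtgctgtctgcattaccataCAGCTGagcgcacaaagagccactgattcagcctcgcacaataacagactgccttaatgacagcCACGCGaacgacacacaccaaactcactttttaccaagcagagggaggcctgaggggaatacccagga

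In the Neurog3 window CAGCTG began 165 bases before the start and the reverse complement of CACGCG 121 bases before it. The Notch2 window held CACGCG 42 bases before the start, and that of Dll1 held CAGCTG at 132 and CACGCG at 68 bases. In all, 5 motifs were searched on both strands, and no match overlapped that of another motif. CACGCG was present for 6 of the 8 genes and in 7.62% of 32851 promoter windows of the same length, and CAGCTG for 6 of the 8 genes and in 13.001% of windows. CACNAG, the N-box of HES factors, was found for 5 genes and in 36.7% of windows, and TGGGAA, the core of the RBPJ site, for Sox4 alone and in 21.6% of windows. CACGTG was found for none of the 8 genes and in 6.02% of windows. The members' windows held 50.8 to 72% G and C, against a median of 52.4% over all windows, and motif counts were not adjusted for this.

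None of the 10 genes changed in Chd4KO beta cells at an adjusted p under 0.05, where 2.97% of 15189 tested genes did (limma on log2(TPM + 1), Benjamini-Hochberg adjustment over all genes tested). Only 5 members, Hes6, Sox4, Hes1, Notch1 and Dll1, had at least 1 TPM in at least 4 libraries and entered that test, and 0 of these 5 had an unadjusted p under 0.05. The other 5, Neurog3, Sox9, Sox11, Notch2 and Jag1, were below the filter and take their values from the same fit over all 31466 genes above 0, where 1.58% of genes were called and none of the 5 was. Adding 1 before taking logs compresses the change of genes this low. Of the 10 members 1, Notch2, had groups that did not overlap, against 9.82% of genes above 0. The median change of all genes tested was -0.25, a shift that was -0.02 after median-of-ratios scaling. In bulk RNA, fewer cells of a type and less RNA per cell cannot be told apart.

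**Figure D1:**
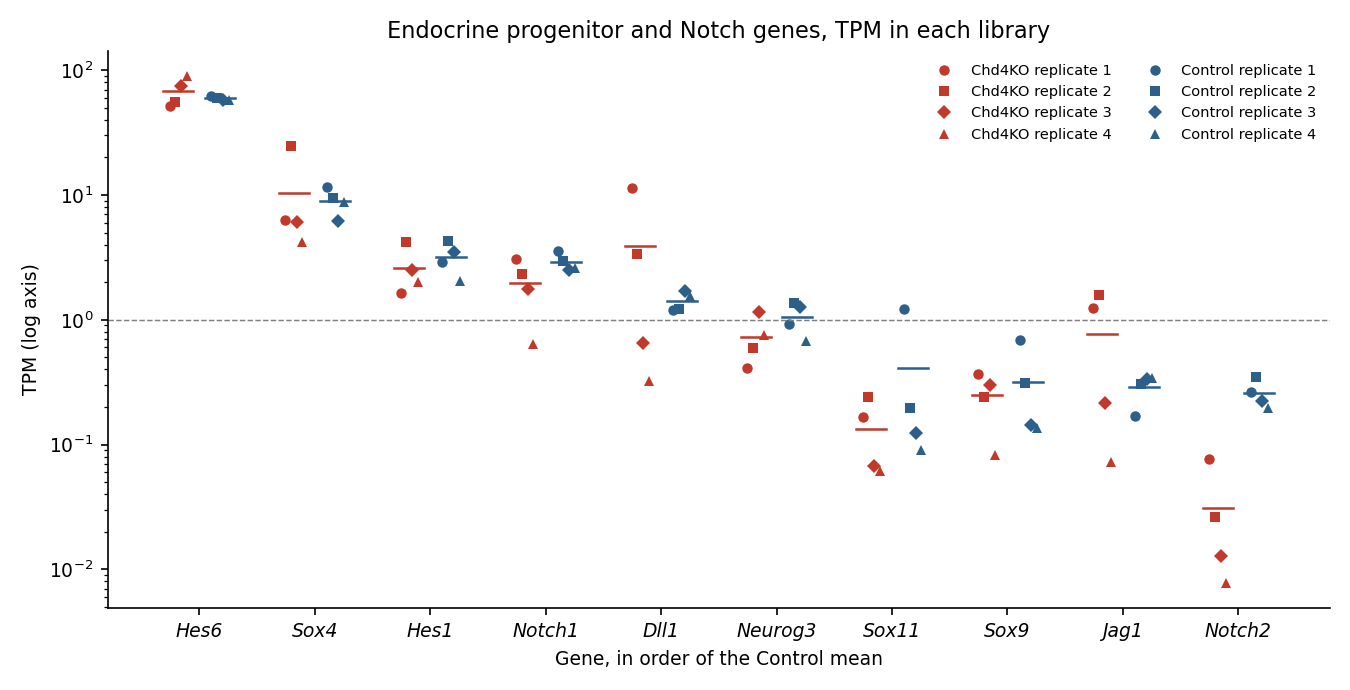
TPM of the 10 genes in each library on a log axis, Chd4KO in red left of Control in blue for each gene, with a bar at each group mean. Notch2 is the gene whose groups do not overlap, Dll1 and Jag1 have Chd4KO libraries on both sides of Control, and Neurog3 lies between 0.412 and 1.35 TPM. The dashed line marks 1 TPM, the minimum of the filter.

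Neurog3, the endocrine fate switch (ENSMUSG00000044312, mm10 chromosome 10, 62133090 to 62134763, plus strand), was low in both groups and did not pass the test. It had 0.412, 0.592, 1.16 and 0.756 TPM in Chd4KO replicates 1 to 4, against 0.928, 1.35, 1.27 and 0.674 TPM in Control replicates 1 to 4. The groups overlapped, and the 2 lowest libraries were Chd4KO replicates 1 and 2. These values rest on 5, 7, 14 and 15 recovered reads in Chd4KO and 11, 42, 25 and 18 in Control. Summed over libraries that is 0.609 reads per M reads in Chd4KO (95% Poisson interval 0.437 to 0.826) and 0.815 in Control (0.660 to 0.995), intervals that cover counting error only. The log2 change was -0.25 ± 0.16 (SE) with a 95% interval of -0.64 to 0.13 (limma adjusted p = 0.577, exact permutation p = 0.171). With 1 library left out it ranged from -0.37 (without Chd4KO replicate 3) to -0.16 (without Chd4KO replicate 1). By median of ratios it was -0.09 (limma adjusted p = 0.873). With that scaling Neurog3 stood at 0.347, 0.529, 1.21 and 1.39 in Chd4KO replicates 1 to 4. Control replicates 1 to 4 then had 0.770, 1.21, 1.18 and 0.630, and Chd4KO replicate 4 was highest of all. Neurog3 overlaps Fam241b on the opposite strand, which averaged 10.5 TPM in Chd4KO and 10.8 TPM in Control, and the library kit does not mark strand. Reads from the span they share cannot be told apart.

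Sox4, the most abundant of the 3 SOX members, did not pass the test, and 1 Chd4KO library stood far above the others. It had 6.33, 24.8, 6.10 and 4.23 TPM in Chd4KO replicates 1 to 4 and 11.7, 9.42, 6.22 and 8.73 TPM in Control replicates 1 to 4. Leaving aside Chd4KO replicate 2, the highest Chd4KO value in TPM barely exceeded the lowest Control value. After median-of-ratios scaling Chd4KO replicates 1, 3 and 4 were at 5.33, 6.35 and 7.76, and Control lay between 5.78 and 9.70. Replicates 3 and 4 were then inside the Control range. The log2 change was -0.10 ± 0.46 (SE, limma adjusted p = 0.913), and it was -0.60 (adjusted p = 0.233) without Chd4KO replicate 2, the library with acinar transcripts. Whether the acinar material carries this Sox4 was not tested. The sign also turned with the scaling, to 0.15 by median of ratios.

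Sox9, the factor of progenitors and ducts, was at the edge of detection in both groups. It had 0.367, 0.240, 0.302 and 0.0817 TPM in Chd4KO replicates 1 to 4, and 0.683, 0.313, 0.144 and 0.136 TPM in Control replicates 1 to 4. The ranges overlapped, on 31 reads in all of Chd4KO and 60 in all of Control (log2 change -0.07 ± 0.14, SE, limma adjusted p = 0.85). The sign turned under 4 alternatives. Sox11, a SoxC factor of embryonic endocrine cells, had 0.166, 0.238, 0.067 and 0.061 TPM in Chd4KO replicates 1 to 4 and 1.22, 0.195, 0.123 and 0.0904 TPM in Control replicates 1 to 4. The single high value was that of Control replicate 1, and the other Control libraries lay within the Chd4KO range. Its log2 change was -0.25 ± 0.23 (SE, limma adjusted p = 0.698), and it was -0.0059 without Control replicate 1.

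The ligand genes Dll1 and Jag1 varied more among Chd4KO mice than between genotypes. Dll1, the Delta-type ligand by which endocrine precursors engage Notch on their neighbours (ENSMUSG00000014773, mm10 chromosome 17, 15367354 to 15376872, minus strand), had 11.4, 3.39, 0.657 and 0.320 TPM in Chd4KO replicates 1 to 4, against 1.205, 1.23, 1.70 and 1.54 TPM in Control replicates 1 to 4. Chd4KO replicates 1 and 2 lay above every Control library, and replicates 3 and 4 lay below every one. The coefficient of variation of Dll1 was 131% in Chd4KO and 17.1% in Control. Its log2 change was 0.45 ± 0.62 (SE) with a 95% interval of -0.95 to 1.86 (limma adjusted p = 0.697), and without Chd4KO replicates 1, 3 and 4 in turn it was -0.18, 0.79 and 0.90 (adjusted p = 0.774, 0.581 and 0.44). The split was the same after median-of-ratios scaling, with Dll1 at 9.58, 3.03, 0.684 and 0.588 in Chd4KO and between 0.9998 and 1.58 in Control.

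Jag1, a Serrate-type ligand, divided the Chd4KO libraries much as Dll1 did. It had 1.23, 1.58, 0.214 and 0.0724 TPM in Chd4KO replicates 1 to 4 and 0.170, 0.306, 0.337 and 0.344 TPM in Control replicates 1 to 4. Replicates 1 and 2 of Chd4KO were above all Control libraries, replicate 4 was below all, and replicate 3 was within their range. The log2 change was 0.36 ± 0.29 (SE, limma adjusted p = 0.664), and it was 0.22, 0.15 and 0.57 without Chd4KO replicates 1, 2 and 4. It rests on 52, 65, 9 and 5 reads in Chd4KO and 7, 33, 23 and 32 in Control. The 14 duct markers, of which none was at 0 in every library and 9 were tested, with Ambp higher and Cftr lower in Chd4KO, summed to 3463, 1965, 1255 and 959 TPM in Chd4KO replicates 1 to 4 and to between 1226 and 2256 TPM in Control. Krt19, the defining duct keratin, had 0.687 to 2.16 TPM in Chd4KO and 0 to 1.31 TPM in Control. Chd4 itself was highest in Chd4KO replicate 1 and lowest in replicate 4. The part of duct markers, of remaining Chd4 and of the mouse in the ligand values was not tested.

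Of 8 other ligand and receptor genes 4 were tested, Jag2, Dner, Dlk1 and Dll4, none passed, and their median log2 change was 0.90. Jag2, the Serrate-type ligand that was the more abundant one here, had 42.8, 24.7, 32.8 and 8.36 TPM in Chd4KO replicates 1 to 4 and 9.87, 8.29, 9.73 and 9.25 TPM in Control replicates 1 to 4. Chd4KO replicates 1 to 3 were above all Control libraries and replicate 4 lay within their range (log2 change 1.25 ± 0.43, SE, limma adjusted p = 0.189). Jag2 was called in 8 of 20 alternatives, and without Chd4KO replicate 4 its log2 change was 1.71 (adjusted p = 0.00271). Dner, a neuronal Notch ligand-like gene, had 29.1, 32.2, 22.97 and 7.02 TPM in Chd4KO replicates 1 to 4 and 11.98 to 16.3 TPM in Control (log2 change 0.54, adjusted p = 0.51), and it was called in 3 of 20 alternatives, with 1.01 (adjusted p = 0.0145) without Chd4KO replicate 4. Dlk1, an imprinted non-canonical ligand of precursor cells, was chosen for mention after its values were seen. It had 12.9, 13.1, 6.29 and 4.07 TPM in Chd4KO replicates 1 to 4 and 3.37, 1.04, 0.422 and 2.05 TPM in Control replicates 1 to 4. No Chd4KO library of Dlk1 overlapped Control, as for 14.8% of tested genes (log2 change 1.89 ± 0.44, SE, limma adjusted p = 0.0571), and 7 of 19 alternatives called it.

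**Figure D2:**
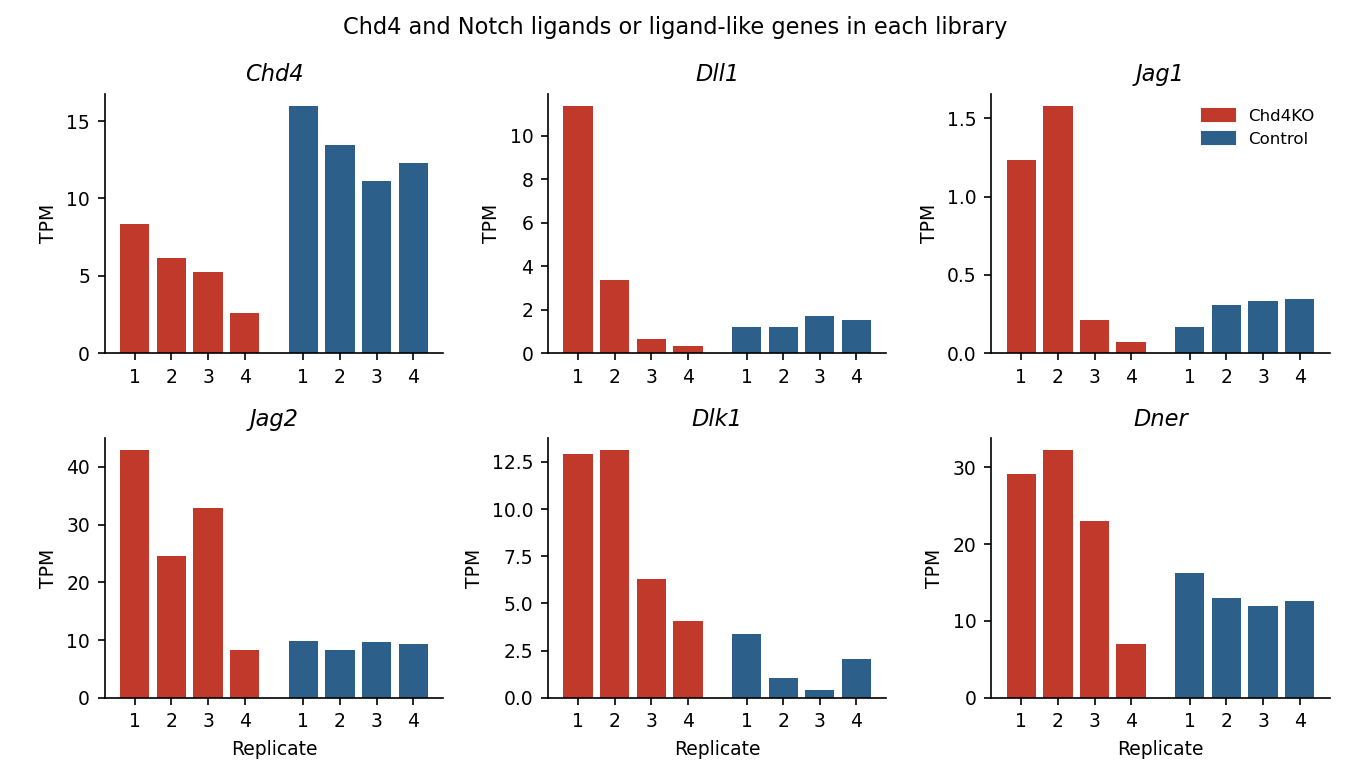
TPM of Chd4 and of 5 Notch ligand or ligand-like genes in each library as bars from 0, Chd4KO replicates 1 to 4 in red left of Control replicates 1 to 4 in blue, each gene with its own scale. Dll1 and Jag1 are high in Chd4KO replicates 1 and 2 and low in replicate 4. In TPM, Jag2 and Dner are above every Control library in Chd4KO replicates 1 to 3 and not in replicate 4. After median-of-ratios scaling, not shown here, Jag2 was above Control in replicate 4 too.

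Notch1, the receptor (mm10 chromosome 2, 26457903 to 26516663, minus strand), had 3.09, 2.34, 1.76 and 0.641 TPM in Chd4KO replicates 1 to 4, against 3.56, 2.93, 2.49 and 2.58 TPM in Control replicates 1 to 4. Chd4KO replicate 1 lay inside the Control range, and the other 3 Chd4KO libraries lay below it. The log2 change was -0.46 ± 0.28 (SE) with a 95% interval of -1.10 to 0.17 (limma adjusted p = 0.432), or -0.21 relative to the median gene, and it was -0.21 (adjusted p = 0.574) without Chd4KO replicate 4. Notch1 overlaps the opposite-strand transcripts 0610009E02Rik and Gm13568, and reads from any span they share cannot be told apart.

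Notch2, the second receptor (ENSMUSG00000027878, mm10 chromosome 3, 98013527 to 98150361, plus strand), was the member with the clearest separation of the groups, at a very low level. It had 0.0768, 0.0263, 0.0128 and 0.00783 TPM in Chd4KO replicates 1 to 4 and 0.262, 0.350, 0.221 and 0.198 TPM in Control replicates 1 to 4. Every Chd4KO library was below every Control library, as for 6.83% of genes above 0, and the Chd4KO mean was 12.0% of the Control mean (exact permutation p = 0.0286, the smallest possible). In reads this is 6, 2, 1 and 1 in Chd4KO and 20, 70, 28 and 34 in Control. The sums were 0.149 reads per M reads in Chd4KO (95% Poisson interval 0.0713 to 0.273) and 1.29 in Control (1.09 to 1.51). These intervals cover counting error only and not the spread between mice. Such intervals were also apart for Dll1, Jag1 and Sox11, whose groups overlapped. On log2(TPM + 1) the change was -0.29 ± 0.06 (SE) and did not pass (limma adjusted p = 0.0745 in the fit over all genes above 0, where 0.728% of genes were called lower). Limma's voom was also run on the recovered reads of the 16440 genes with at least 10 reads in at least 4 libraries. This alternative was added after the data were seen. Notch2 had fewer than 10 reads in every Chd4KO library and entered that fit only through Control, so its groups had to be apart in reads. Its log2 change there was -2.93 ± 0.51 (SE, limma voom adjusted p = 0.00947), where 2.01% of genes were called lower. Over 18 alternatives the adjusted p lay between 0.00909 and 0.235, and 5 of them called Notch2 lower in Chd4KO. Endothelial and mesenchymal cells also use Notch2. The 12 endothelial markers, with 2 tested, none called and none at 0 throughout, summed to 6.60 to 10.3 TPM in Chd4KO and 5.69 to 6.29 TPM in Control, and Cdh5, their defining cadherin, did not exceed 0.0201 TPM in any library. The 11 mesenchymal markers, none of them tested, summed to 1.23 to 2.74 TPM in Chd4KO and 0.282 to 1.04 TPM in Control. The part of such cells in the Notch2 values was not tested. The 2 small transcripts annotated inside Notch2, Gm42819 and Gm42820, averaged 0 and 0 TPM in Chd4KO and 0 and 0.00511 TPM in Control.

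**Figure D3:**
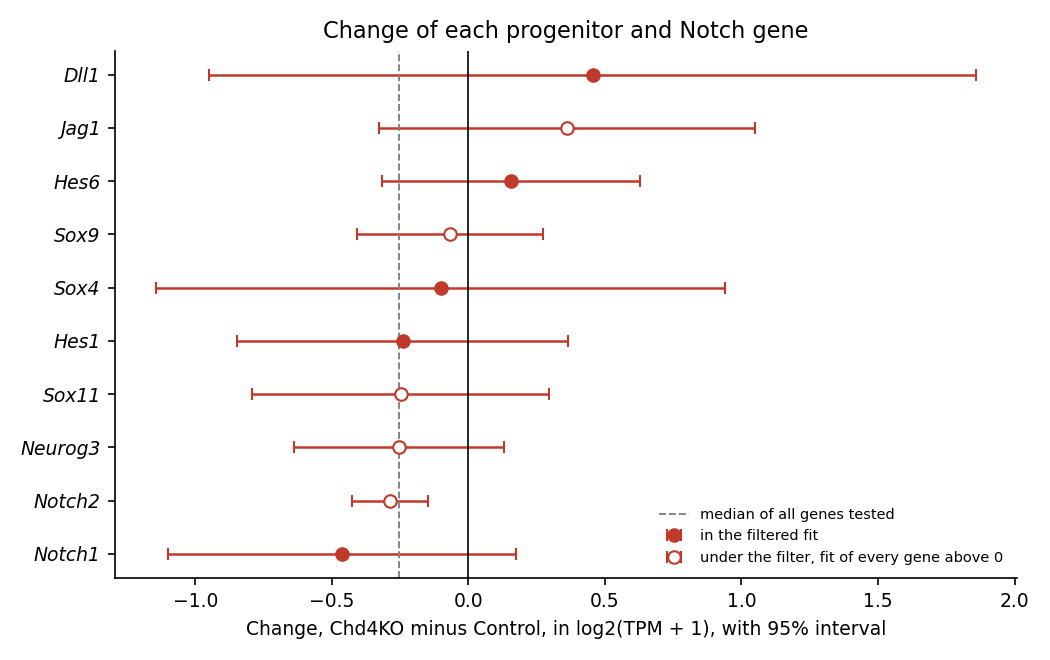
Log2 change (Chd4KO minus Control, on log2(TPM + 1)) of each of the 10 genes with its 95% interval from limma, filled points for genes in the filtered test, open points for genes below its filter, and a dashed line at the median of all genes tested. The intervals of 9 genes include 0, and that of Notch2 lies below 0 without passing the adjusted threshold.

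Hes1, the repressor through which Notch silences Neurog3 (mm10 chromosome 16, 30064384 to 30067796, plus strand), did not differ beyond the spread between mice. It had 1.63, 4.24, 2.52 and 1.99 TPM in Chd4KO replicates 1 to 4 and 2.91, 4.27, 3.52 and 2.03 TPM in Control replicates 1 to 4. Values of both genotypes intermixed, with a log2 change of -0.24 ± 0.27 (SE, 95% interval -0.85 to 0.36, limma adjusted p = 0.636), which is 0.01 relative to the median gene. It was -0.11 and -0.44 without Chd4KO replicates 1 and 2, and -0.12 and -0.39 without Control replicates 2 and 4.

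Hes6, the antagonist of Hes1 and a gene that stays on in differentiated endocrine cells (mm10 chromosome 1, 91411483 to 91414038, minus strand), was by far the most abundant member. It had 52.0, 55.7, 74.3 and 89.8 TPM in Chd4KO replicates 1 to 4 and 61.9, 59.7, 58.1 and 58.2 TPM in Control replicates 1 to 4. Chd4KO replicates 1 and 2 were below every Control library and replicates 3 and 4 above every one, the opposite split to Dll1. The coefficient of variation was 25.8% in Chd4KO and 2.98% in Control. The log2 change was 0.16 ± 0.21 (SE, 95% interval -0.32 to 0.63, limma adjusted p = 0.693), and without Chd4KO replicates 1 to 4 in turn it was 0.27, 0.24, 0.10 and 0.011. After median-of-ratios scaling the split was wider, with 43.8, 49.7, 77.4 and 165 in Chd4KO and 51.4 to 54.4 in Control. The insulin share, 36.4, 32.4, 47.0 and 62.0% of TPM in Chd4KO replicates 1 to 4, was also higher in replicates 3 and 4, and its part in the Hes6 values was not tested.

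By mean TPM the order of the genes in Chd4KO was Hes6 (68.0 TPM), Sox4, Dll1, Hes1, Notch1, Jag1, Neurog3, Sox9, Sox11 and Notch2 (0.0309 TPM). In Control the order was Hes6 (59.5 TPM), Sox4, Hes1, Notch1, Dll1, Neurog3, Sox11, Sox9, Jag1 and Notch2 (0.258 TPM). The ranges of neighbours in these orders overlapped, except between Hes6 and Sox4 and between Neurog3 and Sox9 in Chd4KO, and between Hes6 and Sox4, Sox4 and Hes1, and Notch1 and Dll1 in Control.

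The genes most like the 3 most abundant members were sought by Pearson correlation over the 8 libraries after removal of group means, among 11127 protein-coding genes tested, as a description. Hes6 was closest to H2-M10.5 (r = 0.988), Akip1 (r = 0.983) and Oaz1 (r = 0.980). H2-M10.5 was at 0 TPM in every Control library, so its r rests on the Chd4KO libraries, through which alone it was tested. Sox4 was closest to Asb13 (r = 0.988), Bcl2l1 (r = 0.983) and Kpna7 (r = 0.983), which were also highest in Chd4KO replicate 2 among Chd4KO libraries. Hes1 was closest to Lpar6 (r = 0.969), P2ry14 (r = 0.962) and Galt (r = 0.958). With 8 libraries, 1 library far from its group can set such a value.

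The wider pathway was described with 8 lists of other Notch, progenitor and endocrine genes, 132 genes in all, of which 80 were tested. Mfng was higher and Aldh1b1 lower in Chd4KO, the other 78 did not pass, and the median log2 change of the 80 was -0.27 beside -0.25 over all genes tested. The share called in the whole table was 1.53% higher and 1.44% lower. An unadjusted p under 0.05 was reached by 12 of the 80, and by 2460 of all 15189 genes tested. The change was positive in 13 of the 80 and negative in 67, beside 3828 positive and 11361 negative over all genes tested.

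Mfng, the Manic Fringe glycosyltransferase that adds sugars to Notch and alters its choice of ligand, was among the 27 genes of Notch processing, of which 24 were tested. It rose to 4.23, 2.34, 3.22 and 3.003 TPM in Chd4KO replicates 1 to 4, against 0.497, 0.741, 0.420 and 0.684 TPM in Control replicates 1 to 4. All Chd4KO libraries lay above all Control libraries (log2 change 1.39 ± 0.19, SE, limma adjusted p = 0.00587), and all 19 alternatives that tested it called it. Being under 1 TPM in every Control library, it entered the test only through its level in Chd4KO, so its groups had to be apart. The other list members did not pass, with Ncstn and Psenen, subunits of the gamma-secretase that cleaves Notch, at log2 changes of -0.05 and -0.06, signs that turned with the scaling. Dtx4, a Deltex ubiquitin ligase picked out after its values were seen, had 11.1, 4.52, 3.34 and 1.44 TPM in Chd4KO replicates 1 to 4 and 0.837, 0.372, 0.555 and 0.324 TPM in Control replicates 1 to 4. Like Mfng it did not reach 1 TPM in Control and entered the test only through Chd4KO, so its lack of overlap was fixed by the filter. Its log2 change did not pass (1.77 ± 0.42, SE, limma adjusted p = 0.0639).

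Aldh1b1, a mitochondrial aldehyde dehydrogenase that marks pancreatic progenitors in mouse, was the called gene of the 25 multipotent and ductal progenitor factors, of which 15 were tested. It fell to 0.901, 2.03, 1.51 and 1.76 TPM in Chd4KO replicates 1 to 4, against 8.66, 6.22, 6.94 and 4.47 TPM in Control replicates 1 to 4. The groups were apart by more than their spread (log2 change -1.56 ± 0.23, SE, limma adjusted p = 0.00923), and all 19 alternatives called it, with adjusted p values up to 0.0497. Pdx1, the factor of early pancreas and of mature beta cells, was at 94.6 ± 23.2 TPM in Chd4KO and 118 ± 14.3 TPM in Control on average (SD, n = 4 each, limma adjusted p = 0.463). Cpa1, which is made by progenitors and acinar cells, had 7.88, 1360, 0.0792 and 0 TPM in Chd4KO replicates 1 to 4 and 0.161, 67.8, 0.487 and 5.83 TPM in Control replicates 1 to 4. Its high values fell in the libraries where the other acinar markers were high, so no change was read from it (adjusted p = 0.818).

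Among the 12 genes of the Notch transcription complex, 10 were tested and none passed, with a median log2 change of -0.36. Ncor1, a corepressor, averaged 27.5 ± 4.18 TPM in Chd4KO and 35.1 ± 3.33 TPM in Control (SD, n = 4 each, limma adjusted p = 0.37), and Snw1, a coregulator bound by RBPJ, averaged 21.7 ± 2.45 TPM in Chd4KO and 24.7 ± 2.09 TPM in Control (adjusted p = 0.574). Of 13 target genes besides Hes1 only 3 were tested, with a median log2 change of -1.09 and none called. Myc, the growth regulator, had 3.86, 18.6, 5.35 and 6.74 TPM in Chd4KO replicates 1 to 4 and 37.0, 16.3, 15.97 and 11.6 TPM in Control replicates 1 to 4, with overlapping groups (log2 change -1.23 ± 0.47, SE, limma adjusted p = 0.248). Ccnd1, a cyclin of the cell cycle, averaged 19.4 ± 6.11 TPM in Chd4KO and 19.02 ± 3.05 TPM in Control.

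The 25 genes of endocrine differentiation, which act with or after Neurog3, had 21 members tested and none called, with a median log2 change of -0.34. Neurod1, a direct target of Neurog3, was at 180, 201, 128 and 66.8 TPM in Chd4KO replicates 1 to 4 and at 158, 220, 189 and 176 TPM in Control replicates 1 to 4 (log2 change -0.47 ± 0.33, SE, limma adjusted p = 0.484, and -0.15 without Chd4KO replicate 4). Isl1, a homeobox factor of islet cells, averaged 80.2 ± 10.7 TPM in Chd4KO and 89.4 ± 2.4 TPM in Control (adjusted p = 0.605). Of 10 dedifferentiation genes, Klf4 alone was tested, with 5.66, 7.80, 2.73 and 2.08 TPM in Chd4KO replicates 1 to 4 and 1.81, 12.9, 12.7 and 12.3 TPM in Control replicates 1 to 4 (limma adjusted p = 0.464), and its log2 change of -0.85 was -1.42 without Control replicate 1. The pluripotency genes Nanog, Pou5f1 and Sox2 were listed at 0 in all 8 libraries. Of 12 other SOX genes, Sox12 averaged 4.19 ± 1.71 TPM in Chd4KO and 2.95 ± 0.41 TPM in Control (adjusted p = 0.516), Sox13 averaged 2.82 ± 1.26 TPM in Chd4KO and 3.40 ± 0.935 TPM in Control (adjusted p = 0.647), and the other 10 were not tested.

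**Figure D4:**
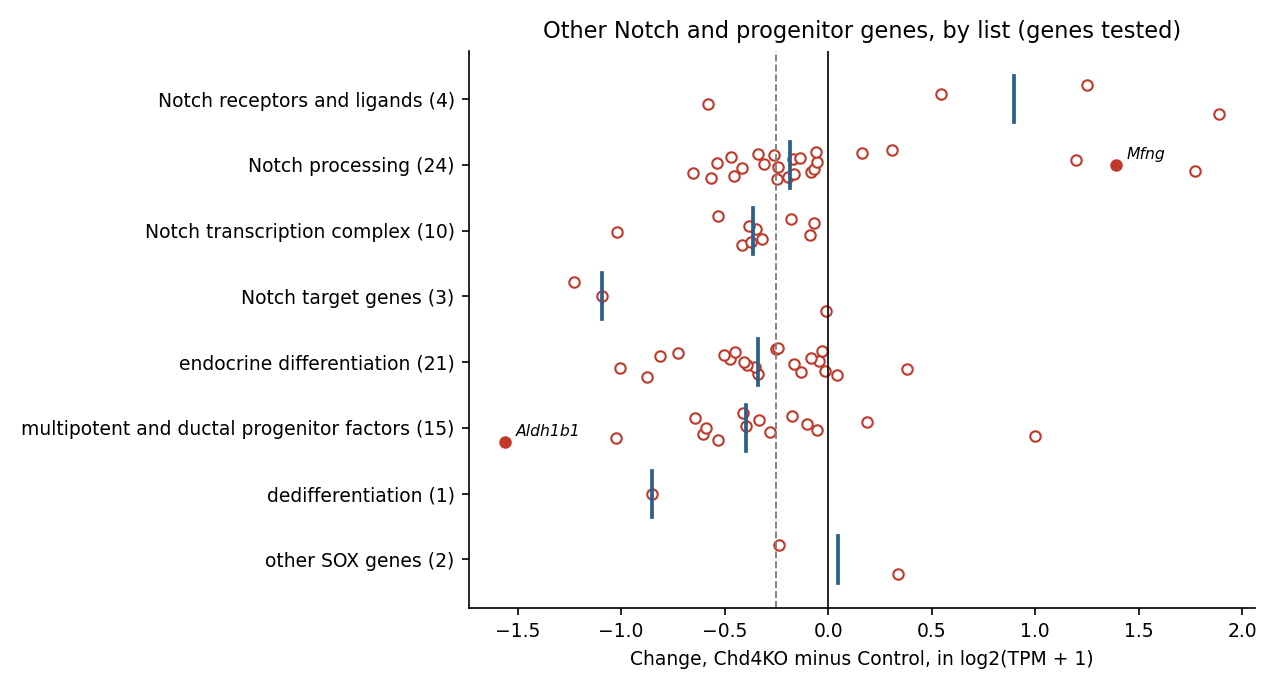
Log2 change (Chd4KO minus Control, on log2(TPM + 1)) of each tested gene of the 8 pathway lists, with a bar at each list's median and a dashed line at the median of all genes tested. Mfng and Aldh1b1 are the called genes, and 67 of the 80 points lie below 0, beside 11361 of all 15189 genes tested. Those of the transcription complex and of the target genes all lie below 0 in TPM. Snw1 and Ccnd1 among them turned positive after median-of-ratios scaling.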

How the data were processed

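RNA was sequenced from sorted beta cells of 4 Chd4KO and 4 Control mice. Per the labels' protocols, RNA that met an integrity limit was amplified as cDNA (SMART-Seq, low input) and made into Nextera XT libraries, which do not mark strand. The tools in the submitters' processing notes are HISAT2, HTSeq, DESeq2, Trimmomatic and FastQC, on build mm10, without roles or versions. The authors deposited 1 table of TPM per library, scaled to the same total, and their annotation release is not stated there. Identifiers were matched to GENCODE M21 (55227 of 55487). TPM times merged exon length gave whole reads for 97.9 to 98.6% of values (tolerance 0.05 of a read), used for depth and for voom.

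Log2(TPM + 1) was fitted by genotype alone with limma 3.58.1 (R 4.3.3), for genes of at least 1 TPM in at least 4 libraries. P-values are two-sided, adjusted by Benjamini-Hochberg over all genes tested and called under 0.05. Genes below the filter take values from the fit of every gene above 0. Single values were compared by exact permutation tests, two-sided. The fits were tested on simulated data. Replicates carry separate numbers in their titles, read here as animal numbers.

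The members, the lists and the tests were chosen with earlier results of these data known. Named are the 10 members, Chd4, from each list up to 4 called genes and, where at most 1 was called, the 2 tested genes of highest TPM, and for the 3 most abundant tested members the 3 protein-coding genes that varied most like them. Promoter windows are from RefSeq (GRCm38.p6). Alternatives were another pseudocount, other filters, 3 other scalings, a variance trend, array weights, a replicate block, voom on recovered reads, and leaving out libraries. Tables and figures were made in Python 3.11.15 (scipy 1.17.1, pandas 2.3.3, numpy 2.4.6, matplotlib 3.10.9).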

Additional observations from a re-analysis of the deposited data

Results flagged for a closer look

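Of 82 sets of 4 libraries looked at, 9 held a library far from the other 3 of its group by Dixon's ratio at the 95% level, which chance gives in about 1 in 20 sets. Sox4 was at 24.8 TPM in Chd4KO replicate 2, against 4.23 to 6.33 TPM in the other Chd4KO libraries. Sox11 was at 1.22 TPM in Control replicate 1, against 0.0904 to 0.195 TPM in the other Control libraries. Cpa1 was at 1360 TPM in Chd4KO replicate 2, against 0 to 7.88 TPM in the other Chd4KO libraries, and at 67.8 TPM in Control replicate 2, against 0.161 to 5.83 TPM in the other Control libraries. The 15 acinar markers, which include Cpa1, summed to 34791 TPM in Chd4KO replicate 2 and to 1342 TPM in Control replicate 2, against at most 180 TPM in the other Chd4KO libraries and 151 TPM in the other Control libraries. Klf4 was at 1.81 TPM in Control replicate 1, against 12.3 to 12.9 TPM in the other Control libraries. The endothelial markers summed to 5.69 TPM in Control replicate 2, against 6.20 to 6.29 TPM in the others. Markers of other islet endocrine cells summed to 3749 TPM in Control replicate 4, against 6617 to 6989 TPM in the others.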

How the results depend on the processing

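Of the 10 members 0 were called in the main fit, and 1, Notch2, was called in some alternatives. These were a pseudocount of 0.1 (log2 change -1.46, limma adjusted p = 0.0312), scaling without hormones and mitochondrial genes (-0.48, 0.0432) and array weights (-0.29, 0.0449). Voom on recovered reads also called it, over every gene above 0 (-2.91, 0.00909) or with a filter on reads (-2.93, 0.00947). Being below the main filter, Notch2 took its other values too from fits over every gene above 0. It entered the fit with a filter on reads only through Control. Leaving out single libraries gave 0 called members. Mfng and Aldh1b1 were called in each of the 19 alternatives that tested them. Mfng passed the main filter only through Chd4KO, so its groups had to be apart in TPM. The 451 changed genes numbered 220 at a minimum of 5 TPM, 724 by median of ratios, 755 by quantile normalisation (466 higher and 289 lower, against 233 and 218), 1364 with array weights, 274 with the replicate block, 774 with voom, 959 with voom and a filter on reads, 785 without Chd4KO replicates 2 and 4, and 171 to 829 when 1 library was left out, with 171 without Control replicate 4 and 829 without Chd4KO replicate 4. The causes were not tested. Same-numbered libraries deviated together with r of -0.02, 0.43, 0.08 and 0.04 for replicates 1 to 4. Whether the numbers mark a shared batch was not tested. No member was called with the replicate block.

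Aldh1b1 did not turn its sign in any alternative that tested it, and the signs of other called genes were not followed. Nor did Mfng, but its direction was set by the filter that it passed through Chd4KO alone. Among genes that were not called, the log2 change turned as follows under median of ratios, scaling without hormones, quantile normalisation and voom with both filters. Sox4 was 0.15, 0.022, 0.20, 0.16 and 0.16, Ncstn 0.23, 0.10, 0.10, 0.23 and 0.23, Psenen 0.23, 0.10, 0.083, 0.22 and 0.22, and Ccnd1 0.26, 0.14, 0.22, 0.27 and 0.27. Snw1 was 0.10, 0.037, 0.10 and 0.10 under these but the scaling without hormones, Isl1 was 0.12 by median of ratios and in both voom fits, Cpa1 was -0.058 and -0.079 by voom, Hes1 was 0.0075 by quantile normalisation and Sox9 was 0.17 by voom. With array weights Sox4 was 0.028, Sox9 0.056, Ncstn 0.10 and Ccnd1 0.090. Without Chd4KO replicates 2 and 4, Sox9 was 0.035, Ncstn 0.12, Ccnd1 0.36 and Cpa1 -0.79. With 1 library left out the range was -0.60 to 0.17 for Sox4, -0.13 to 0.056 for Sox9, -0.18 to 0.90 for Dll1, -0.16 to 0.12 for Ncstn, -0.17 to 0.023 for Psenen, -0.16 to 0.15 for Ccnd1 and -1.33 to 2.23 for Cpa1. Leaving out 1 library also moved Pdx1 (to -0.17 without Chd4KO replicate 2), Sox12 (to 0.15 and 0.57 without Chd4KO replicates 1 and 4), Sox13 (-0.41 to -0.075), Snw1 (to -0.12 without Chd4KO replicate 4) and Isl1 (to -0.10 without Chd4KO replicate 1). Depth limits the 5 members below the filter most, since in Chd4KO Notch2 rests on 10 reads and Sox9 on 31.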

Other observations

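Among the genes of the lists that stayed below the filter, Notch4, a receptor of endothelial cells, had 0.359, 0.579, 0.584 and 0.733 TPM in Chd4KO replicates 1 to 4 and 0.368, 0.208, 0.370 and 0.326 TPM in Control replicates 1 to 4. Chd4KO replicate 1 lay within the Control range and the other Chd4KO libraries above it, and the adjusted p was 0.291 (limma, fit of every gene above 0). Aldh1a3, an aldehyde dehydrogenase used as a mark of failing beta cells in mouse, had 0.329, 0.0613, 0.240 and 0.0549 TPM in Chd4KO replicates 1 to 4 and 0.0917, 0.561, 0.905 and 0.624 TPM in Control replicates 1 to 4 (limma adjusted p = 0.429). Gast, the gastrin gene that some stressed beta cells switch on, had 0.300, 0.923, 4.22 and 1.28 TPM in Chd4KO replicates 1 to 4 and 0.307, 0.587, 0.556 and 0.817 TPM in Control replicates 1 to 4 (limma adjusted p = 0.599). Hes5, the Notch target of the nervous system, was listed at 0 in every library but Chd4KO replicate 4, where it had 0.124 TPM. All 4 genes were picked after their values were seen.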
